A study of Homo sapiens with 4 samples.

Results

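The semaphorin, ephrin and other guidance genes were taken as every protein-coding symbol of the semaphorin, plexin, neuropilin, ephrin, Eph receptor, Slit, Robo, netrin and UNC5 families. This gave 70 of the 60614 gene IDs in the count tables. UNC5CL, which is no netrin receptor, and the EFNA4-EFNA3 readthrough, which held 0 reads in each of the 4 libraries, were left out. RNA-seq compared 2 genotypes of DU145, an established prostate carcinoma line of human origin. SPOP-F133V cells carried a mutant form of SPOP, the substrate adaptor of a CUL3 ubiquitin ligase, and the comparison cells are labelled wild-type. Each genotype had 2 libraries, numbered 1 and 2, with 36149516 and 35173245 reads counted in genes for F133V, against 39642063 and 36102260 for wild-type. The labels give no treatment or time point. They do not say whether the mutant cells were a clone, a pool or an overexpression line, nor whether replicates came from separate cultures. P-values therefore measure only the spread between these libraries, which may be technical, and the mutation and the way each line was made cannot be told apart.

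Guidance cues steer axons, blood vessels and migrating epithelial cells. Secreted class 3 semaphorins are bound by neuropilins together with plexins, most membrane-bound semaphorins by plexins alone, and ephrins by Eph receptor tyrosine kinases on a neighbouring cell. Slits act through Robo receptors, and netrins through DCC, neogenin and the UNC5 receptors. Many of these genes are expressed in carcinoma lines, where they act on cell shape, adhesion and motility.

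SPOP was at 1171 and 1151 CPM (counts after TMM scaling for library size) in the F133V libraries, against 844 and 906 CPM in the wild-type libraries. This was a log2 fold change of 0.41 ± 0.055 (SE; edgeR quasi-likelihood test, Benjamini-Hochberg (BH) adjusted p = 2.7e-06). Mutant and wild-type SPOP transcripts are counted together. Summed keratin, EPCAM, CDH1 and other prostate epithelial markers stood at 2262 to 2459 CPM in F133V cells and 1858 to 1859.7 CPM in wild-type cells, while the luminal marker KLK3 had 0 reads in each library. Summed neural markers were at 12.5 to 14.1 CPM in F133V cells and 15.2 to 16.8 CPM in wild-type cells, with STMN2 and ELAVL4 at 0. Endothelial and fibroblast markers summed to 8.28 to 9.04 CPM in F133V cells and 6.75 to 6.98 CPM in wild-type cells, with DCN and LUM at 0, and hematopoietic markers to 2.15 to 2.58 CPM in F133V cells and 1.43 to 1.96 CPM in wild-type cells. The part of these markers in the results below was not tested.

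Before the adjustment for GC content described below, most of the tested guidance genes were called higher in F133V cells. They included 5 of 6 tested netrin and UNC5 genes and all 5 class B Eph receptors. SEMA6B, SEMA6C and 5 of 6 class 4 semaphorins were also among them. A small group was called lower, NTN4, EFNB2 and PLXNC1 among them. With the adjustment 29 of the 54 tested genes were called higher, and EPHB4 was not called. The summed level of all 70 genes was 3061 and 3233 CPM in the F133V libraries, against 2599 and 2636 CPM in the wild-type libraries. SEMA4B alone supplied much of that, and without it the sums were 1868 and 1987 CPM in the F133V libraries and 1774 and 1797 CPM in the wild-type libraries. The filter on low counts was passed by 54 of the 70 genes. Of these, 36 were called higher (66.7%) and 8 lower (14.8%) at an adjusted p under 0.05, and 10 were not called. Among all 17539 tested genes 54.8% were called, 27.2% higher and 27.6% lower, so the share of guidance genes called higher stood above the background and the share called lower stood below it. The median log2 fold change was 0.38 over the 54 guidance genes and 0.02 over all tested genes. With upper-quartile scaling the median of all genes moved to 0.132, 6462 genes were higher and 3831 lower, and the guidance genes split into 39 higher and 6 lower. In bulk RNA a change in RNA per cell cannot be told apart from a change in which cells express a gene.

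**Figure D1:**
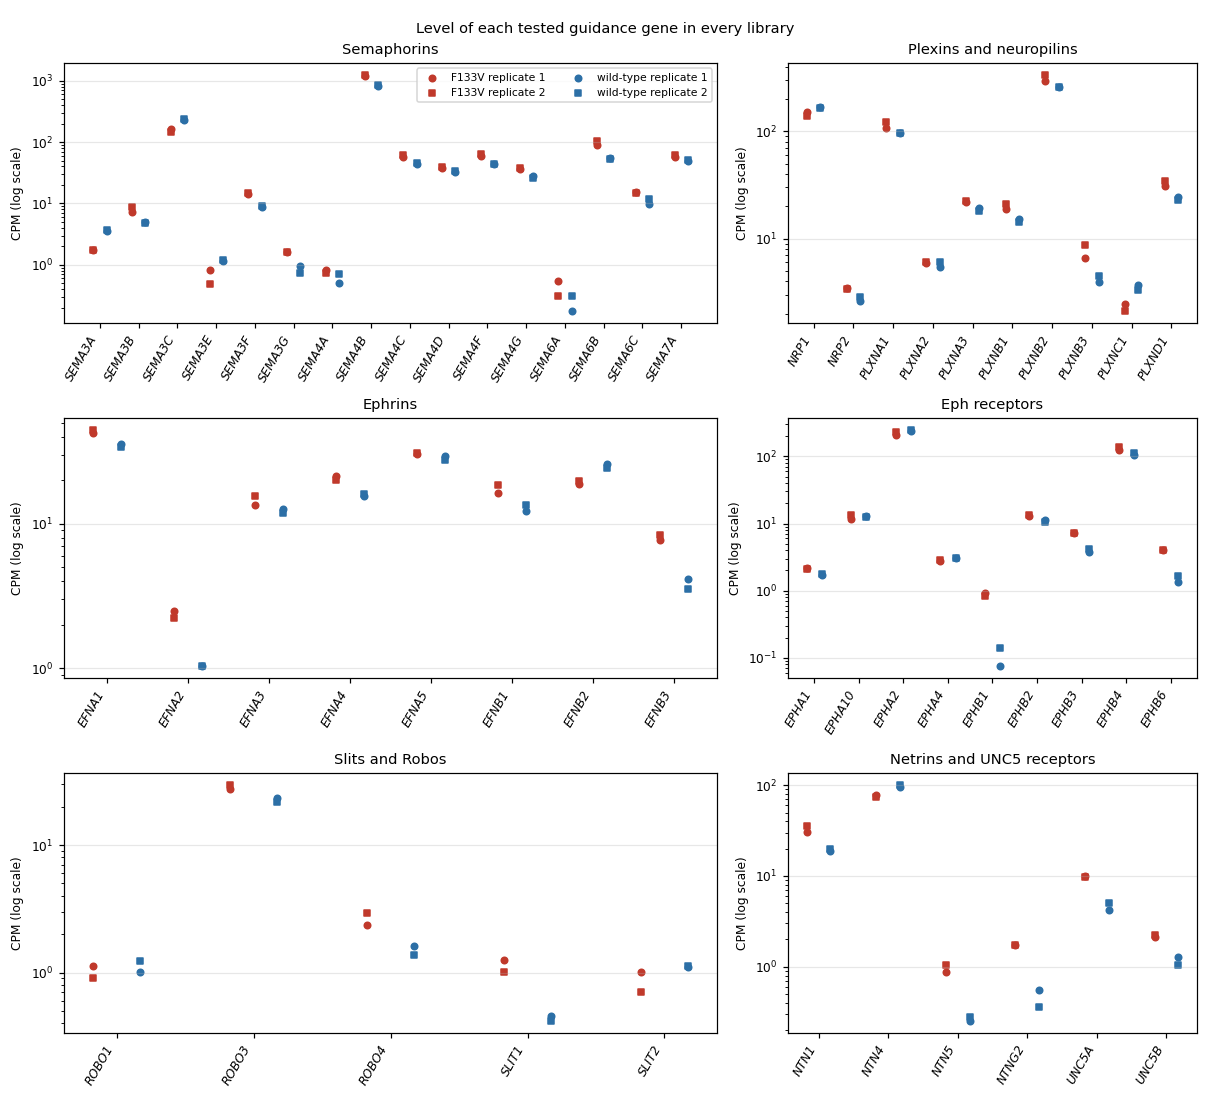
Level of each of the 54 tested guidance genes in every library, in CPM on a log scale, with F133V libraries in red left of wild-type libraries in blue and circles and squares for replicates 1 and 2. In 41 genes both F133V libraries lay above both wild-type libraries, in 10 both lay below, and in 3 the groups overlapped.

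Of all tested genes, 40.1% had both F133V libraries above both wild-type libraries and 37.8% had both below, so separation of the 4 libraries was common at this depth. The 16 genes that did not pass the filter had at most 12 reads in any library. They were SEMA3D, SEMA5A, SEMA5B, SEMA6D, PLXNA4, EPHA3, EPHA5, EPHA6, EPHA7, EPHA8, ROBO2, SLIT3, NTN3, NTNG1, UNC5C and UNC5D. SEMA6D, EPHA3, UNC5C and UNC5D had 0 reads in all 4 libraries. A count of 0 allows a level of up to 0.0817 and 0.085 CPM in the F133V libraries and 0.0764 and 0.0841 CPM in the wild-type libraries, taken as 3 reads and covering counting error only. EPHA8 had 12 and 6 reads in F133V cells, against 3 and 2 in wild-type cells, and SEMA3D had 5 and 3 reads in F133V cells, against 12 and 7 in wild-type cells. Neither was tested.

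The difference between genotypes ran with the GC content of the transcripts, and guidance transcripts are GC-rich. Over the 11766 genes with a mean log2 CPM above 2, split into 10 equal bins by GC content, the median log2 fold change was -0.68 in the bin of lowest GC content and 0.29 in the bin of highest. The Spearman correlation between GC content and the fold change was 0.73 over these genes and 0.56 over the 54 tested guidance genes. The 2 F133V libraries differed from each other along the same axis, with the Spearman correlation between GC content and the replicate 2 minus replicate 1 difference at 0.77 over those genes and 0.56 over the guidance genes, against -0.043 over the guidance genes between the wild-type libraries. These correlations are across genes, which share libraries and are not independent. Of the 34 guidance genes with at least 58% GC, 31 were called higher and 1 lower, beside 56.9% and 2.17% of all genes in that range. Of the 11 with under 50% GC, 0 were called higher and 6 lower, beside 10.6% and 48% of all such genes. Each value is therefore also given after an adjustment for GC content and transcript length. It brought the medians of the 10 bins to between -0.04 and 0.01, but did not remove all of the trend over the guidance genes. The adjustment also removes any difference between the genotypes that truly follows GC content.

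After the adjustment, 29 of the 54 guidance genes were called higher (53.7%) and 5 lower (9.26%), beside 27.6% and 24.5% of the 17299 genes with a GC value, of which 52.1% were called in either direction. The median log2 fold change of the guidance genes was then 0.18. A total of 28 genes were called higher and 4 lower in both fits, 12 were called before the adjustment but not after it, and 0 were called in opposite directions. Among guidance genes of at least 58% GC, 24 were called higher and 2 lower after the adjustment, beside 27.5% and 24.1% of all genes in that range. Of the 11 with under 50% GC, 1 was called higher and 2 lower, beside 28.8% and 25.2% of all such genes. The Spearman correlation with GC content over the 54 genes was 0.38 after the adjustment, so a trend with GC content remained among them.

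**Figure D2:**
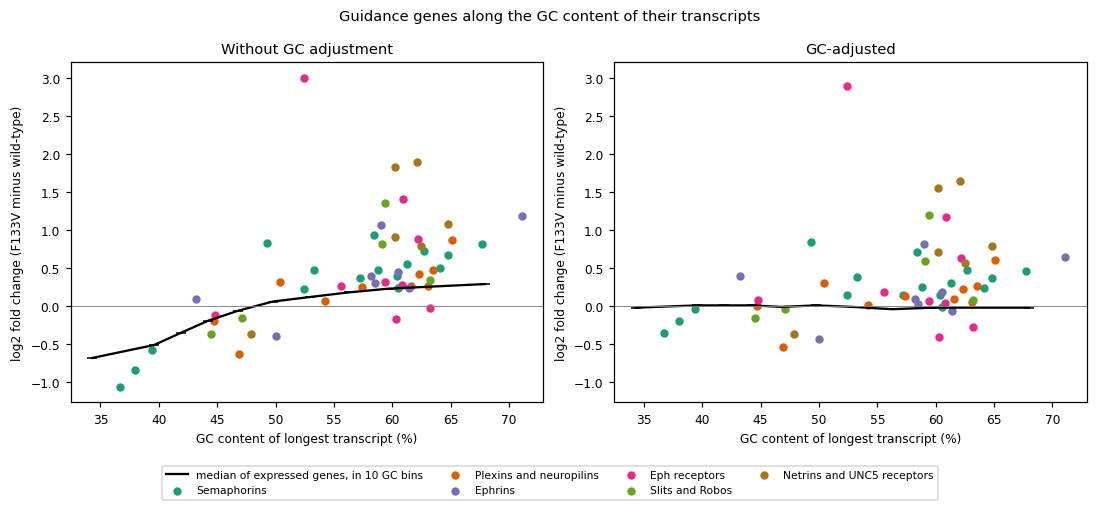
Log2 fold change (F133V minus wild-type) of the 54 tested guidance genes against the GC content of their longest transcript, before (left) and after (right) the GC adjustment, coloured by family, with the median of the 11766 genes above a mean log2 CPM of 2 in 10 bins of GC content as a black line. The line runs from -0.68 to 0.29 before the adjustment and lies near 0 after it, with most guidance genes above it in both panels.

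**Figure D3:**
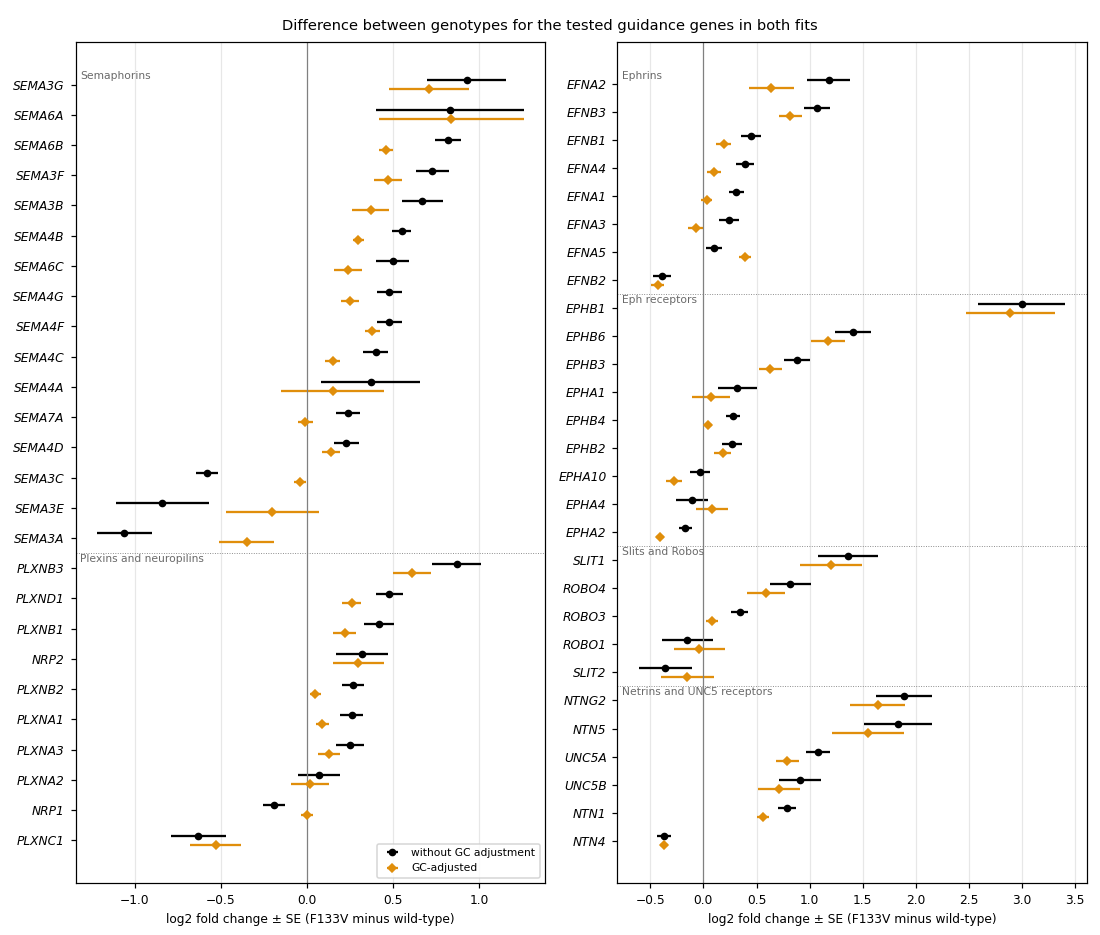
Log2 fold change ± SE (F133V minus wild-type) for each tested guidance gene, before (black circles) and after (orange diamonds) the GC adjustment, grouped by family. Of the 54 genes, 28 were called higher and 4 lower in both fits.

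Per kilobase of transcript, SEMA4B, a transmembrane class 4 semaphorin, was the most abundant guidance mRNA in both genotypes. Its level per length was 320.4 ± 9.79 CPM per kilobase in F133V cells and 219 ± 2.65 in wild-type cells (SD, n = 2 each). It made up 43.6 ± 0.244% of the summed per-length level of all guidance genes in F133V cells and 36.5 ± 0.0567% in wild-type cells (SD, n = 2 each). EPHA2 came second in both, at 55.0 ± 4.29 CPM per kilobase in F133V cells and 61.7 ± 1.21 in wild-type cells. PLXNB2 and SEMA3C held the next places in both genotypes, in opposite order. PLXNB2 stood at 49.2 CPM per kilobase in F133V cells and 40.8 in wild-type cells, and SEMA3C at 30.1 CPM per kilobase in F133V cells and 45 in wild-type cells. EPHB4, NRP1, SEMA6B, EFNA1 and NTN4 followed in F133V cells, between 21.2 and 25.9 CPM per kilobase, and stood between 13.8 and 28.2 in wild-type cells, where SEMA7A at 14.9 came ahead of SEMA6B.

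**Figure D4:**
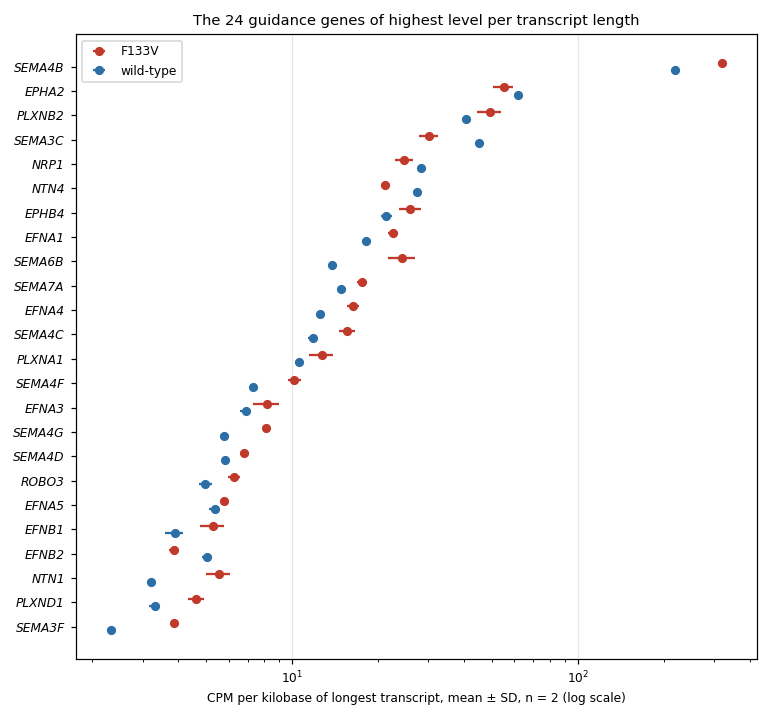
Level of the 24 most abundant guidance genes in CPM per kilobase of longest transcript on a log scale, as mean ± SD (n = 2) in F133V cells (red) and wild-type cells (blue). SEMA4B stood at 320.4 in F133V cells and 219 in wild-type cells, ahead of the other guidance genes in both.

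Among the semaphorins, the ligands of the plexins, 11 of 16 tested genes were called higher (68.8%) and 3 lower (18.8%), with a median log2 fold change of 0.48. After the GC adjustment 10 were higher (62.5%) and 0 lower, with a median of 0.25. The shares over all genes were 27.2% and 27.6% before the adjustment and 27.6% and 24.5% after it. Of all genes with at least 58% GC, 56.9% were higher before it. SEMA4B (ENSG00000185033.14, chromosome 15, 90160604 to 90229679 on the plus strand of GRCh38) was at 1193 and 1246 CPM in the F133V libraries, against 825 and 839 CPM in the wild-type libraries. Both F133V libraries stood above both wild-type libraries, by a log2 fold change of 0.55 ± 0.053 (SE; edgeR, BH-adjusted p = 3.64e-08), which was 0.30 ± 0.034 after the GC adjustment (adjusted p = 7.68e-10). SEMA6B (chromosome 19, 4542593 to 4559808), a transmembrane ligand of class A plexins, was at 89.6 and 104 CPM in the F133V libraries, against 55.7 and 54 CPM in the wild-type libraries. The log2 fold change was 0.82 ± 0.074 before the adjustment and 0.46 ± 0.041 after it (edgeR, adjusted p = 1.55e-08 and 2e-12). The other class 4 genes SEMA4C, SEMA4D, SEMA4F and SEMA4G were each called higher in both fits, with log2 fold changes of 0.23 to 0.48 before and 0.14 to 0.38 after the adjustment. SEMA4A and SEMA6A were not called in either fit.

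The class 3 semaphorins, the secreted ligands, divided along GC content and by chromosome. SEMA3A (chromosome 7, 83955777 to 84492724), the classical collapsing factor for growth cones, was at 1.77 and 1.76 CPM in the F133V libraries, against 3.62 and 3.76 CPM in the wild-type libraries, a log2 fold change of -1.06 ± 0.16 (edgeR, adjusted p = 1.01e-05). SEMA3C (chromosome 7, 80742538 to 80922359) was at 164 and 147 CPM in the F133V libraries, against 228 and 238 CPM in the wild-type libraries, a log2 fold change of -0.58 ± 0.064 (edgeR, adjusted p = 1.93e-07). SEMA3E, a ligand of PLXND1, was at 0.817 and 0.482 CPM in the F133V libraries, against 1.15 and 1.21 CPM in the wild-type libraries (log2 fold change -0.84 ± 0.27, adjusted p = 0.0119). These 3 genes lie on chromosome 7, and their transcripts hold 36.7%, 39.4% and 38% GC.

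After the GC adjustment the calls for SEMA3A, SEMA3C and SEMA3E were lost, with log2 fold changes of -0.35, -0.04 and -0.20 and edgeR adjusted p-values of 0.0709, 0.322 and 0.553. SEMA3B, SEMA3F and SEMA3G lie on chromosome 3, with transcripts of 64.8%, 62.7% and 58.4% GC, and were higher in both fits. SEMA3F (chromosome 3, 50155045 to 50189075) was at 14.4 and 15 CPM in the F133V libraries, against 8.63 and 9.11 CPM in the wild-type libraries, with log2 fold changes of 0.73 ± 0.094 before and 0.47 ± 0.081 after the adjustment (edgeR, adjusted p = 1.5e-06 and 5.72e-06). SEMA3B had 7.22 and 8.64 CPM in the F133V libraries, against 5.07 and 4.88 CPM in the wild-type libraries (0.67 ± 0.12 and 0.37 ± 0.11 in the 2 fits). SEMA3G had 1.61 and 1.64 CPM in the F133V libraries, against 0.968 and 0.729 CPM in the wild-type libraries (0.93 ± 0.23 and 0.71 ± 0.23). The groups did not overlap for any of the 6.

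These paralogs differ in GC content at the wobble position of their codons, where it is 42% in SEMA3A, 45.1% in SEMA3C and 44.3% in SEMA3E, against 79.6% in SEMA3B, 74.8% in SEMA3F and 76.1% in SEMA3G. It can be read in a stretch of 120 coding bases that encodes nearly the same protein in both genes, coding bases 1558 to 1677 of SEMA3C and 1660 to 1779 of SEMA3F from GENCODE transcripts on GRCh38. They share 33 of 40 amino acids there. They differ at 32 bases, shown in capitals, of which 19 fall on a wobble position. SEMA3F has G or C where SEMA3C has A or T at 18 of these bases, and the reverse holds at 6. The stretch of SEMA3C, called lower before the adjustment only, holds 57.5% GC, and that of SEMA3F, called higher in both fits, 67.5%. It was chosen for the most shared amino acids. The whole coding sequences hold 44.4% GC in SEMA3C and 61.5% in SEMA3F. At wobble positions the stretch holds 55% GC in SEMA3C and 75% in SEMA3F, a smaller contrast than over the whole coding sequences.
SEMA3C: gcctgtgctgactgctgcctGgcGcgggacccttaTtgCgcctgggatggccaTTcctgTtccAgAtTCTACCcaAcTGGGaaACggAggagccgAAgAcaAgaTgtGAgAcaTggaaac
SEMA3F: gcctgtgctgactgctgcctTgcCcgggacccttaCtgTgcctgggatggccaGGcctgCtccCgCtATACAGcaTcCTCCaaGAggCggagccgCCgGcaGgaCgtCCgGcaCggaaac

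Some semaphorin calls were lost when 1 library was left out. SEMA4D lost its call without wild-type replicate 1 (adjusted p = 0.265) or 2 (0.191), as did SEMA7A (0.179 and 0.155), a GPI-anchored ligand of PLXNC1 whose log2 fold change was 0.24 before and -0.01 after the GC adjustment. SEMA3E lost its call without F133V replicate 2 (0.147) or wild-type replicate 2 (0.0511). In the adjusted fit SEMA3G was not called without wild-type replicate 2 (edgeR, adjusted p = 0.138), nor SEMA4C without wild-type replicate 1 (0.167), nor SEMA6C without F133V replicate 1 (0.358) or wild-type replicate 1 (0.29), and SEMA4D was not called without any 1 of the 4 libraries (0.0557 to 0.166). DESeq2 did not call SEMA3E (0.167), SEMA3G (0.0746) or SEMA4D (0.0727).

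Of the receptors of the semaphorins, the plexins and neuropilins, 6 of 10 tested genes were called higher (60%) and 2 lower (20%), with a median log2 fold change of 0.27. After the GC adjustment 4 were higher (40%) and 1 lower (10%), with a median of 0.11. The shares over all genes were 27.2% and 27.6% before the adjustment and 27.6% and 24.5% after it. Of all genes with at least 58% GC, 56.9% were higher before it. PLXNB3, a class B plexin, was at 6.65 and 8.67 CPM in the F133V libraries, against 3.92 and 4.48 CPM in the wild-type libraries, with log2 fold changes of 0.87 ± 0.14 before and 0.61 ± 0.11 after the adjustment (edgeR, adjusted p = 1.89e-05 and 2.01e-05). It shares 20.4% of its exonic bases with SRPK3, so part of its reads may belong there. PLXND1, the receptor of SEMA3E, was at 31.2 and 34.3 CPM in the F133V libraries, against 24.2 and 22.8 CPM in the wild-type libraries (0.48 ± 0.08 and 0.26 ± 0.055). PLXNB1, the receptor of SEMA4D, was at 18.8 and 21.1 CPM in the F133V libraries, against 15.4 and 14.3 CPM in the wild-type libraries (0.42 ± 0.089 and 0.22 ± 0.067). F133V libraries lay above wild-type libraries for each of these 3.

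PLXNC1 (ENSG00000136040.9, chromosome 12, 94148723 to 94307675 on the plus strand), the receptor of SEMA7A, went the other way. It was at 2.45 and 2.13 CPM in the F133V libraries, against 3.74 and 3.33 CPM in the wild-type libraries, a log2 fold change of -0.63 ± 0.16 that was -0.53 ± 0.15 after the adjustment (edgeR, adjusted p = 0.00193 and 0.00374). DESeq2 gave an adjusted p of 0.0517, and the adjusted fit without wild-type replicate 1 gave 0.0602. NRP1, the co-receptor of class 3 semaphorins and of VEGF, was at 152 and 138 CPM in the F133V libraries, against 167 and 165 CPM in the wild-type libraries. Its log2 fold change was -0.19 ± 0.063 (edgeR, adjusted p = 0.0149) and 0.00 ± 0.036 after the adjustment (0.93), and its call was also lost without wild-type replicate 1 (0.235) or 2 (0.187). NRP2 and PLXNA2 were not called in either fit.

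The most abundant plexins had smaller fold changes. PLXNB2 was at 293 and 335 CPM in the F133V libraries, against 259 and 261 CPM in the wild-type libraries, a log2 fold change of 0.27 ± 0.064 (edgeR, adjusted p = 0.00116) that was 0.05 ± 0.033 after the adjustment (0.252). PLXNA1 stood at 107 and 123 CPM in the F133V libraries, against 95.7 CPM in each wild-type library (0.26 ± 0.069 and 0.09 ± 0.038), and PLXNA3 at 22 and 22.2 CPM in the F133V libraries, against 19.2 and 18 CPM in the wild-type libraries (0.25 ± 0.081 and 0.13 ± 0.063). Without wild-type replicate 1 or 2 the calls were lost for PLXNB2, PLXNA1 and PLXNA3. The log2 fold changes were then 0.266 and 0.271 for PLXNB2, 0.26 and 0.257 for PLXNA1, and 0.293 and 0.198 for PLXNA3. In the adjusted fit PLXNA3 was not called, PLXNA1 was not called without F133V replicate 2 (0.376) or wild-type replicate 1 (0.178) or 2 (0.243), and PLXNB1 was not called without wild-type replicate 2 (0.144).

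All 8 ephrins, the membrane-bound ligands of Eph receptors, were measured, and 6 were called higher (75%) and 1 lower (12.5%), with a median log2 fold change of 0.35. After the GC adjustment 4 were higher (50%) and 1 lower (12.5%), with a median of 0.15. The shares over all genes were 27.2% and 27.6% before the adjustment and 27.6% and 24.5% after it. Of all genes with at least 58% GC, 56.9% were higher before it. EFNB3 (ENSG00000108947.5, chromosome 17, 7705202 to 7711378 on the plus strand), a transmembrane ephrin, was at 7.76 and 8.39 CPM in the F133V libraries, against 4.15 and 3.53 CPM in the wild-type libraries. Its log2 fold change was 1.07 ± 0.12 before and 0.82 ± 0.11 after the adjustment (edgeR, adjusted p = 3.61e-07 and 8.39e-08). EFNA2, a GPI-anchored ephrin, was at 2.48 and 2.24 CPM in the F133V libraries, against 1.04 CPM in each wild-type library (1.18 ± 0.2 and 0.64 ± 0.21). The F133V libraries of both genes lay above the wild-type libraries.

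EFNB2 (ENSG00000125266.8, chromosome 13, 106489731 to 106535662 on the minus strand), the ligand of EPHB4, was lower in both fits. It was at 18.8 and 19.8 CPM in the F133V libraries, against 26 and 24.4 CPM in the wild-type libraries, with log2 fold changes of -0.39 ± 0.081 before and -0.43 ± 0.061 after the adjustment (edgeR, adjusted p = 4.15e-04 and 1.16e-07). A gene on the other strand shares 26.2% of its exonic bases. EFNA5 was at 30.3 and 31.1 CPM in the F133V libraries, against 29.5 and 27.7 CPM in the wild-type libraries. It was not called before the adjustment (0.10 ± 0.076, adjusted p = 0.266) and was called higher after it (0.39 ± 0.056, edgeR, adjusted p = 2.09e-07). At 43.2% GC its transcript is the least GC-rich of the ephrins.

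EFNB1 was at 16.3 and 18.7 CPM in the F133V libraries, against 12.2 and 13.5 CPM in the wild-type libraries (0.45 ± 0.094 and 0.19 ± 0.072). The A-class ligands EFNA1, EFNA3 and EFNA4 were called before the adjustment, with log2 fold changes of 0.31, 0.24 and 0.39, and not after it, with 0.03, -0.07 and 0.10. EFNA1, the main ligand of EPHA2, was at 42.3 and 44.8 CPM in the F133V libraries, against 36 and 34.3 CPM in the wild-type libraries. EFNA4 was at 21.4 and 20 CPM in the F133V libraries, against 15.5 and 16.1 CPM in the wild-type libraries, and EFNA3 at 13.5 and 15.6 CPM in the F133V libraries, against 12.7 and 11.9 CPM in the wild-type libraries. EFNA3 and EFNA4 share 44.7% and 15% of their exonic bases with the readthrough gene, so their counts are uncertain. The calls were lost for EFNA1 without wild-type replicate 2 (adjusted p = 0.129) and for EFNA3 without F133V replicate 2 (0.211), wild-type replicate 1 (0.143) or 2 (0.347) or with DESeq2 (0.231). In the adjusted fit EFNA2 was not called without F133V replicate 1 (0.131) or wild-type replicate 1 (0.063), nor EFNB1 without F133V replicate 2 (0.118) or wild-type replicate 1 (0.36).

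Of the Eph receptors, all 5 of class B were called higher, 4 of them also after the GC adjustment. Their transcripts hold 52.4% to 62.2% GC. Before the adjustment 27.2% of all tested genes were called higher, and 56.9% of those with at least 58% GC. EPHB1 (52.4%) and EPHB2 (55.6%) do not reach that bound. Of 4 tested class A receptors 0 were called higher and 1 lower, and after the adjustment 0 were higher and 2 lower. Together, 5 of the 9 tested receptors were called higher (55.6%) and 1 lower (11.1%). The adjusted fit called 4 higher (44.4%) and 2 lower (22.2%). Lower calls covered 27.6% of all genes before the adjustment. The adjusted fit called 27.6% of all genes higher and 24.5% lower. Over the 9 tested receptors the median log2 fold change was 0.28 before and 0.08 after the adjustment. With upper-quartile scaling EPHA1 was also called higher (adjusted p = 0.0424), and EPHA2 was not called (0.479). The difference between the classes was not tested.

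EPHB6 (ENSG00000106123.12, chromosome 7, 142855061 to 142871094 on the plus strand), a receptor that lacks kinase activity, was at 3.98 and 4 CPM in the F133V libraries, against 1.35 and 1.65 CPM in the wild-type libraries. This was a log2 fold change of 1.41 ± 0.17 before and 1.17 ± 0.16 after the adjustment (edgeR, adjusted p = 4.53e-07 and 1.23e-07). EPHB3 was at 7.19 and 7.34 CPM in the F133V libraries, against 3.72 and 4.18 CPM in the wild-type libraries (0.88 ± 0.12 and 0.63 ± 0.11). For both receptors the F133V libraries lay above the wild-type libraries.

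EPHB1 (ENSG00000154928.18, chromosome 3, 134597801 to 135260467 on the plus strand) had the largest fold change of the tested guidance genes and was singled out after its values were seen. It had 34 and 29 reads in the F133V libraries, against 3 and 5 in the wild-type libraries. Summed over replicates and divided by the reads in genes, the ratio was 8.36 with an exact 95% interval of 4 to 20.2 that covers counting error only. The log2 fold change was 3 ± 0.41 before and 2.89 ± 0.42 after the adjustment (edgeR, adjusted p = 3.58e-06 and 2.83e-07). EPHB1 stayed under 1 CPM in all 4 libraries.

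EPHB4, the receptor of EFNB2 and the most abundant B-class receptor, was at 123 and 139 CPM in the F133V libraries, against 105 and 112 CPM in the wild-type libraries. Its log2 fold change was 0.28 ± 0.069 (edgeR, adjusted p = 0.00194) and 0.04 ± 0.038 after the adjustment (0.364), and its call was lost without wild-type replicate 1 (0.148). EPHB2 was at 12.9 and 13.4 CPM in the F133V libraries, against 11.2 and 10.6 CPM in the wild-type libraries (0.27 ± 0.092 and 0.18 ± 0.078). It lost its call without wild-type replicate 1 (adjusted p = 0.117) or 2 (0.238) and with DESeq2 (0.162), and in the adjusted fit without any 1 of the 4 libraries (0.0829 to 0.246).

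EPHA2 (ENSG00000142627.13, chromosome 1, 16124337 to 16156087 on the minus strand), the most abundant Eph receptor per length, was at 206 and 229.9 CPM in the F133V libraries, against 241 and 248 CPM in the wild-type libraries. The log2 fold change was -0.17 ± 0.062 before the adjustment (edgeR, adjusted p = 0.0294) and -0.41 ± 0.034 after it (adjusted p = 2.43e-13). Before the adjustment its call was lost without wild-type replicate 1 (0.204) or 2 (0.328), and after it the value ranged from -0.43 to -0.40 with each library left out. Its transcript is GC-rich at 60.3%, and it was the 1 guidance gene of at least 58% GC called lower before the adjustment. EPHA10, a receptor without kinase activity, was at 11.7 and 13.3 CPM in the F133V libraries, against 13.1 and 12.4 CPM in the wild-type libraries. It was called lower after the adjustment only (-0.28 ± 0.076, edgeR, adjusted p = 0.0022, and 0.056 without wild-type replicate 1). EPHA1 was at 2.21 and 2.13 CPM in the F133V libraries, against 1.71 and 1.77 CPM in the wild-type libraries, and was not called in either fit (0.32 ± 0.18 and 0.07 ± 0.18), nor was EPHA4.

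Of the Slits and their Robo receptors, 3 of 5 tested genes were called higher (60%) and 0 lower (median 0.34). After the adjustment 2 were higher (40%) and 0 lower (median 0.08). The shares over all genes were 27.2% and 27.6% before the adjustment and 27.6% and 24.5% after it. Of all genes with at least 58% GC, 56.9% were higher before it. SLIT1, a secreted ligand, was at 1.25 and 1.02 CPM in the F133V libraries, against 0.458 and 0.42 CPM in the wild-type libraries, a log2 fold change of 1.36 ± 0.28 before and 1.2 ± 0.29 after the adjustment (edgeR, adjusted p = 3.45e-04 and 6.82e-04). ROBO4, the endothelial Robo, was at 2.37 and 2.95 CPM in the F133V libraries, against 1.63 and 1.37 CPM in the wild-type libraries (0.82 ± 0.19 and 0.59 ± 0.18), and shares 16.9% of its exonic bases with other-strand genes. In the adjusted fit ROBO4 was not called without F133V replicate 2 (0.0561) or wild-type replicate 2 (0.0768).

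ROBO3, a divergent Robo known for midline crossing of axons, was the most abundant of the receptors, at 27.7 and 29.7 CPM in the F133V libraries, against 23.5 and 21.9 CPM in the wild-type libraries. Its log2 fold change was 0.34 ± 0.08 before and 0.08 ± 0.058 after the adjustment (edgeR, adjusted p = 0.00136 and 0.27), and its call was lost without wild-type replicate 2 (0.123). SLIT2 was at 1.01 and 0.708 CPM in the F133V libraries, against 1.1 and 1.12 CPM in the wild-type libraries, and ROBO1 at 1.12 and 0.907 CPM in the F133V libraries, against 1.02 and 1.23 CPM in the wild-type libraries. Neither was called in either fit, with log2 fold changes of -0.36 ± 0.25 for SLIT2 and -0.15 ± 0.24 for ROBO1, and the libraries of ROBO1 overlapped between genotypes.

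The netrins and UNC5 receptors had the largest median of the 6 families, 0.99 before and 0.75 after the GC adjustment. In both fits 5 of 6 tested genes were called higher (83.3%) and 1 lower (16.7%). The shares over all genes were 27.2% and 27.6% before the adjustment and 27.6% and 24.5% after it. Each of the higher genes has a transcript of at least 58% GC, while that of the lower gene, NTN4, holds 47.9%. Of all tested genes with at least 58% GC, 56.9% were called higher before the adjustment and 27.5% after it. The summed level of the family overlapped between genotypes, at 124 to 125 CPM in the F133V libraries and 122 to 128 CPM in the wild-type libraries. The netrins alone summed to 112 to 113 CPM in the F133V libraries, against 116 to 122 CPM in the wild-type libraries. NTN1 (ENSG00000065320.9, chromosome 17, 9021542 to 9244000 on the plus strand), the founding secreted netrin, was at 30.7 and 35.3 CPM in the F133V libraries, against 18.7 and 19.6 CPM in the wild-type libraries. Its log2 fold change was 0.79 ± 0.084 before and 0.56 ± 0.057 after the adjustment (edgeR, adjusted p = 1.47e-07 and 8.28e-11). UNC5A (ENSG00000113763.12, chromosome 5, 176810477 to 176880898 on the plus strand), a repellent netrin receptor with a death domain, was at 9.94 and 9.66 CPM in the F133V libraries, against 4.25 and 5.07 CPM in the wild-type libraries. That was a log2 fold change of 1.08 ± 0.11 before and 0.79 ± 0.11 after the adjustment (edgeR, adjusted p = 1.38e-07 and 5.88e-08). UNC5B, its paralog, was at 2.12 and 2.24 CPM in the F133V libraries, against 1.27 and 1.04 CPM in the wild-type libraries (0.91 ± 0.2 and 0.71 ± 0.2), and was not called in the adjusted fit without wild-type replicate 2 (0.0518). The libraries of each gene were separated by genotype.

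NTNG2, a GPI-anchored netrin, was at 1.74 and 1.73 CPM in the F133V libraries, against 0.56 and 0.364 CPM in the wild-type libraries, with log2 fold changes of 1.89 ± 0.26 and 1.64 ± 0.26 before and after the adjustment (edgeR, adjusted p = 3.21e-06 and 1.55e-06). NTN5 was at 0.872 and 1.05 CPM in the F133V libraries, against 0.255 and 0.28 CPM in the wild-type libraries (1.83 ± 0.32 and 1.55 ± 0.34). NTN4 (ENSG00000074527.13, chromosome 12, 95657807 to 95791152 on the minus strand), a basement membrane netrin that binds laminins, was the exception and the most abundant netrin. It was at 78.5 and 74.7 CPM in the F133V libraries, against 96.6 and 101 CPM in the wild-type libraries, a log2 fold change of -0.37 ± 0.065 before and -0.37 ± 0.04 after the adjustment (edgeR, adjusted p = 7.29e-05 and 4.45e-10).

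Of the netrin receptors outside the families counted here, DCC had 1 read in 1 F133V library and 0 in the other 3 libraries, and neogenin (NEO1) averaged 131 ± 3.43 CPM over the F133V pair of libraries, against 120.1 ± 2.5 CPM over the wild-type pair (mean ± SD of 2). NEO1 was not called before the adjustment (0.12 ± 0.061, edgeR, adjusted p = 0.0944) and was called higher after it (0.15, adjusted p = 5.01e-04). From a list of 26 co-receptors and further ligands, 8 of 18 tested genes were higher (44.4%) and 2 lower (11.1%), with a median of 0.26. After the adjustment 11 were higher (61.1%) and 0 lower. The shares over all genes were 27.2% and 27.6% before the adjustment and 27.6% and 24.5% after it. L1CAM, an adhesion molecule that joins neuropilin receptor complexes, was at 13.7 and 15.9 CPM in the F133V libraries, against 6.32 and 6.47 CPM in the wild-type libraries (1.21 ± 0.1, and 0.98 after the adjustment). NFASC, PTK7 and CD72 were also higher in both fits, with log2 fold changes of 0.83, 0.56 and 1 before and 0.76, 0.35 and 0.75 after the adjustment. MET, the receptor tyrosine kinase that associates with class B plexins, and FLRT2 were lower before the adjustment (-0.41 and -1) and not called after it (-0.05 and -0.34).

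Of 48 genes that act downstream of guidance receptors, 45 were tested, 16 were higher and 11 lower with a median of 0.08, and after the adjustment 10 were higher and 15 lower. These shares, 35.6% higher and 24.4% lower before the adjustment and 22.2% and 33.3% after it, lay near the 27.2% and 27.6%, and the 27.6% and 24.5%, of all genes. The adaptors NCK1 (-0.43 before and 0.24 after) and GIPC1 (0.18 and -0.16) were called in opposite directions in the 2 fits, and were named after their values were seen. ABL2, an actin-regulating kinase, was at 131 and 120.3 CPM in the F133V libraries, against 207 and 205 CPM in the wild-type libraries, and RASA1, a Ras inhibitor, at 57.4 and 47.5 CPM in the F133V libraries, against 86.7 and 90 CPM in the wild-type libraries. Both were lower in both fits, with log2 fold changes of -0.71 and -0.75 before and -0.48 and -0.50 after the adjustment. ENAH, an actin-elongation factor, was also lower in both (-0.71 and -0.17). ADAM10, the protease that sheds ephrins, and ARHGEF12, an exchange factor bound by class B plexins, were lower before the adjustment (-0.67 and -0.51) and not called after it (0.00 and -0.05). RND2, a plexin-binding GTPase, was higher in both fits (0.68 and 0.56).

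The promoter windows of the guidance genes in the RefSeq table (GRCh38.p14) numbered 93 and covered 59 of the 70 genes. Each is a stretch at an annotated promoter, and some lie well inside the gene. They were searched on both strands for the GC box GGGCGG, the AP-1 motif TGANTCA and the EGR motif GCGTGGGCG, where GC box matches may overlap each other or an EGR match. The GC box stood in 73.1% of guidance windows, beside 65.1% of the 17347 windows of all tested genes. The AP-1 motif stood in 1 of 93 windows (1.08%), beside 5.4%, and the EGR motif in 2 (2.15%), beside 1.25%. In the 45 windows of 31 genes called higher the GC box stood in 88.9%, and in the 10 windows of 6 genes called lower in 60%. Windows of the same gene are not independent. For genes called in both fits these shares were 85.3% of 34 windows for the higher genes and 83.3% of 6 windows for the lower genes, so the contrast was not seen there. The median GC content of guidance windows was 65.7%, beside 64.7%. It was 69% in windows of genes called higher and 63.2% in windows of genes called lower. For calls in both fits it was 68.8% (23 higher genes) and 64.2% (4 lower genes). The part of this GC difference in the GC box shares was not tested. The 2 EGR matches were in windows of ROBO3 and SEMA4G, and the AP-1 match in 1 window of PLXNC1. Each of these windows lies inside the annotated span of its gene, away from the gene start.

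A window each of 4 genes with calls in both fits is shown, for SEMA4B the one of highest GC content and for PLXNC1 the one with the AP-1 match, the 2 higher genes first, with GC box and AP-1 matches in capitals. UNC5A (chr5:176810309-176810608, plus strand) and SEMA4B (chr15:90201080-90201379, plus strand) were called higher, and EFNB2 (chr13:106535613-106535912, minus strand) and PLXNC1 (chr12:94262369-94262668, plus strand) lower. The first 3 windows hold several GC boxes and 80.7%, 79.3% and 78.7% GC, so the lower gene EFNB2 is as GC-rich there as the higher genes. The PLXNC1 window holds 53.7% GC, 1 GC box and the AP-1 match. It lies inside the annotated span of the gene, away from the gene start, as does the SEMA4B window shown. A second PLXNC1 window, not shown, holds 64% GC and 5 GC boxes, and the 2 further SEMA4B windows hold 72.3% GC with 3 GC boxes and 55% GC with 0.
UNC5A: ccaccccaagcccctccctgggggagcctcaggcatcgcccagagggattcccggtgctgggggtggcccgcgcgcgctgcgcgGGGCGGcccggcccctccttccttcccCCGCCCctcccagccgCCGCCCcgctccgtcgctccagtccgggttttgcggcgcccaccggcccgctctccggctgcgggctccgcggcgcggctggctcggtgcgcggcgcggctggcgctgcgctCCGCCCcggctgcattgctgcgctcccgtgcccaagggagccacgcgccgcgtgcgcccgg
SEMA4B: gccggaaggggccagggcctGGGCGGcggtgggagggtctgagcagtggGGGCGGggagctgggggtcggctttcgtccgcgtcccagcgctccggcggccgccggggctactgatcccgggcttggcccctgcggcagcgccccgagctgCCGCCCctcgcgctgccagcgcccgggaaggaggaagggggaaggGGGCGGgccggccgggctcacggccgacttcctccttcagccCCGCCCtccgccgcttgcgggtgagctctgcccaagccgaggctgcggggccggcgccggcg
EFNB2: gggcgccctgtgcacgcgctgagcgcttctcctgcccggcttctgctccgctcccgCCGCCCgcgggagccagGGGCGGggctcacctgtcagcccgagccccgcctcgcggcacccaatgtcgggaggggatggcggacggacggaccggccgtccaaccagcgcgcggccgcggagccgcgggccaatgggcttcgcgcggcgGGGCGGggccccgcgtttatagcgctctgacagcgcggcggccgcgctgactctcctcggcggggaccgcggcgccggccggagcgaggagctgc
PLXNC1: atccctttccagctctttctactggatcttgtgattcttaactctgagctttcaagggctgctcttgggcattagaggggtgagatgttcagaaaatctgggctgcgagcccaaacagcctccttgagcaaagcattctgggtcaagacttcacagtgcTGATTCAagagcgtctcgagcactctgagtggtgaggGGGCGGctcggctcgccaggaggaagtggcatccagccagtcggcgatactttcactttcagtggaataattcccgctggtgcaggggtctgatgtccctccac

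A total of 19 guidance genes kept their call under every setting that was tried other than a test against a fold of 1.2. They were SEMA3B, SEMA3F, SEMA4B, SEMA4F, SEMA4G, SEMA6B, PLXNB3, PLXND1, EFNB3, EPHB1, EPHB3, EPHB6, SLIT1, NTN1, NTN5, NTNG2 and UNC5A, which were higher, and EFNB2 and NTN4, which were lower. SEMA4G shares 27.4% of its exonic bases with other genes, MRPL43 on the other strand among them. Against a fold of 1.2 the 17 higher genes of this group kept their calls, and EFNB2 (edgeR, adjusted p = 0.0646) and NTN4 (0.0553) did not. In that test 25 guidance genes were higher, and SEMA3A, SEMA3C, SEMA3E and PLXNC1 were lower, beside 13.7% and 17.5% of all tested genes.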

How the data were processed

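RNA-seq was made from DU145 cells, with 2 SPOP-F133V and 2 wild-type libraries sequenced as single reads, per the labels' protocols. Raw, unnormalized read counts of each gene were deposited. TopHat2 2.0.10 and HTSeq 0.6.0 with build hg38 are named per the submitters' processing notes. Not given in the sources used here are the annotation release, any poly-A selection and any use of strand; without strand, reads of overlapping or antisense genes could not be separated. Reads assigned to no gene (6.12% to 6.53% of reads in the tables), to several genes (3.5% to 3.73%) or aligned several times (13.6% to 16.6%) stayed out of library sizes and tests.

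A name table gave symbols for 60444 of 60614 IDs. Positions, transcript length and GC content were found for 58368 in GENCODE 29 on GRCh38, which may not be the authors' release. Counts were tested in R 4.3.3 with edgeR 4.0.16 (filterByExpr, TMM, quasi-likelihood F-test, genotype only, two-sided, BH over all 17539 tested genes, threshold 0.05, 2 residual degrees of freedom). Each SE is the log2 fold change over the square root of F, and fold changes are F133V minus wild-type. The GC adjustment entered as an offset a median-centred smooth of each library's deviation on log2 length and GC content (mgcv 1.9.3, 8 basis functions, fitted on genes above a mean log2 CPM of 2). It changed the biological coefficient of variation from 4.64% to 2.46%. The test was tested on simulated data with the same spread for all genes and libraries and no trend with GC content. That simulation cannot show how either fit behaves under such a trend or with a noisier F133V pair. Per-length levels divide CPM by the longest transcript. Motif counts use RefSeq windows.

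Replicates differed by more than sampling noise (chi-square over its degrees of freedom 7.68 for F133V and 1.64 for wild-type), so no library was a copy. The alternatives were upper-quartile and RLE scaling, DESeq2 1.42.0, no filter, a test against a fold of 1.2, each library left out, and a replicate block. The members and lists were chosen with earlier results of these data known. In each family values per library are given for up to 6 called genes of largest change that reached 1 CPM in the higher genotype, and up to 2 further genes of highest level per length; from the other lists, up to 6 called genes of lowest adjusted p. EPHB1, NEO1, DCC and the untested genes given with read counts fall outside that rule and were chosen after their values were seen.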

Additional observations from a re-analysis of the deposited data

How the results depend on the processing

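Depth limited the 16 untested guidance genes and EPHB1, with at most 34 reads in a library. Over all genes, 4763 were higher, but 2954 with DESeq2, 2398 against a fold of 1.2 and 2786 to 5225 with a library left out, lowest without wild-type replicate 2; 4841 were lower, but 3067 against a fold of 1.2 and 3551 to 5631 with a library left out. Guidance genes called lower numbered 8, but 4 against a fold of 1.2, 5 with the GC adjustment and 5 to 8 with a library left out. In the GC-adjusted fit with a library left out, 22 to 27 guidance genes were higher and 3 to 5 lower, with both lowest without wild-type replicate 1 and 22 also without wild-type replicate 2. The median of 0.38 was 0.49 with upper-quartile scaling, 0.36 with DESeq2, 0.18 with the GC adjustment, 0.34 to 0.39 with a library left out, and 0.13, 0.16 and 0.20 (lowest, without wild-type replicate 1, and highest) in the adjusted fit with a library left out. The cause was not tested. The biological coefficient of variation, 4.64% with all libraries, was 6.49% without wild-type replicate 1 and 6.48% without wild-type replicate 2. It was 1.71% without either F133V library. With a wild-type library left out the spread rests on the F133V pair alone, so a call can be lost with its fold change nearly unchanged.

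Whether the replicate numbers pair the libraries could not be settled. The replicate differences of the genotypes had r = -0.027 over 17539 genes, but with 2 libraries per genotype this cannot exclude pairing. With the replicate block 36 guidance genes were higher and 8 lower, with 0 calls changed, and with the block and the GC adjustment 29 were higher and 5 lower with a median of 0.18. Among guidance genes called before the GC adjustment and the genes the rule named from both lists, directions turned in the adjusted fit, with or without a library left out, for 8, with 0 of them called there. Outside these, the effectors NCK1 and GIPC1 were called in opposite directions. Values were 0.004 for NRP1 (0.004 with the block, 0.017 and 0.04 with a library left out), -0.07 for EFNA3 (-0.07 with the block, -0.107, -0.104 and -0.031), -0.012 for SEMA7A (-0.011 with the block, -0.064, -0.02 and -0.006) and 0.003 for ADAM10 (0.002 with the block, 0.022 and 0.038). With a library left out SEMA3E reached 0.026, EFNA1 -0.021 and -0.002, EFNA4 -0.035 and EPHB4 0. The SPOP call held under each setting, at 0.36 to 0.56.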
